A study of Mus musculus with 9 samples.

Results

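The interleukin 1 (IL-1) family genes described here are 8 genes for ligands and receptors, Il1a, Il1b, Il1rn, Il1r1, Il1r2, Il1rap, Il18 and Il18rap, chosen by gene symbol from the 24532 genes of the deposited table. All 8 were measured, and all 8 passed the filter on low counts that left 13510 genes for testing. The study sorted neutrophils, the most abundant granulocytes of the innate immune system, from the lung, the peripheral blood and the bone marrow of wild-type C57BL/6 mice by fluorescence-activated cell sorting, and sequenced their polyadenylated RNA. Each tissue had 3 libraries, described as biological replicates. No treatment is named, and the labels give neither the age of the mice, nor the sorting markers, nor whether equally numbered libraries came from the same animals, so p-values measure the spread between these libraries. The comparisons ask how transcript levels of neutrophils differ between the marrow where they form, the blood and the lung.

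Both IL-1 agonists, IL-1 alpha (Il1a) and IL-1 beta (Il1b), bind the receptor encoded by Il1r1, which then recruits the accessory chain encoded by Il1rap and signals through MyD88. The receptor antagonist (Il1rn) occupies the same receptor without recruiting the accessory chain, and the receptor encoded by Il1r2 is a decoy that binds the agonists but lacks the intracellular signalling domain. IL-18 (Il18) signals through its own receptor and the accessory chain encoded by Il18rap, and both IL-1 beta and IL-18 are made as precursors that caspase-1 cuts in inflammasomes. Neutrophils are known as a source of IL-1 beta and of the decoy receptor.

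Il1a and Il1b are neighbours on mouse chromosome 2 (mm10), both on the minus strand, at chr2:129299610-129309972 and chr2:129364578-129371139, with 54605 bases between them. Il1rn lies apart on the same chromosome at chr2:24336860-24351491, on the plus strand. The 250 bases before the start site that RefSeq gives (build GRCm38.p6) are shown for both agonists, which differed in their pattern across tissues, and for the Il1rn start whose transcript held most reads in lung. Each is written 5′ to 3′ on the strand of its gene, at chr2:129309973-129310222 for Il1a, chr2:129371140-129371389 for Il1b and chr2:24345121-24345370 for Il1rn. Capitals mark matches to the motifs searched on both strands.
Il1a: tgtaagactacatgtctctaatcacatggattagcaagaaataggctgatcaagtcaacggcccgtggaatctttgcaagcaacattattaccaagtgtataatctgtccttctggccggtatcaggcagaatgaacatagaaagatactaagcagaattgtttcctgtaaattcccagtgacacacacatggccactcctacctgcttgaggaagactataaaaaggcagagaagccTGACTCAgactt
Il1b: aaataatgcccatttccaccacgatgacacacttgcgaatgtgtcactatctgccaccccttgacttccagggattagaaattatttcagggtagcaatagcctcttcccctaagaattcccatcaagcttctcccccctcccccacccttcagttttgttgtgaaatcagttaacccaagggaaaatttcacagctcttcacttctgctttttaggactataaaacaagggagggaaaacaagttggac
Il1rn: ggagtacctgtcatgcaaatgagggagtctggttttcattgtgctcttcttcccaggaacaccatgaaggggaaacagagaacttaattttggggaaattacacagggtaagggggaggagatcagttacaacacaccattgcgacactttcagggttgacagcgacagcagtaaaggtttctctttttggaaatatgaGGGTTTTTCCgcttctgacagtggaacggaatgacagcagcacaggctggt
The motifs were GGG and CC with 5 bases of any kind between them for NF-kB, TGANTCA for AP-1, TTGCNNAA for C/EBP and TGACGTCA for the cyclic AMP response element. The Il1a window held an AP-1 match from base -12 to base -6 before the start, and the Il1rn window held an NF-kB match, GGGTTTTTCC, from base -51 to base -42. No letters of these 4 motifs matched in the Il1b window. Among 32851 promoter windows of the same length, 45.8% held the NF-kB letters, 6.75% the AP-1 letters, 9.56% the C/EBP letters and 1.55% the cyclic AMP response element letters, so a match describes the sequence only.

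The libraries held 42045548 to 56796219 counts each. The label of the cells was set beside 11 neutrophil markers (Ly6g, S100a8, S100a9, Mmp8, Mmp9, Cxcr2, Csf3r, Retnlg, Itgam, Fcgr3 and Trem1), which were all present in all 3 tissues. Presence cannot tell cell types apart here, since all monocyte, macrophage, T and NK cell and B cell markers also had over 9 reads in each tissue. At the threshold given below, 9 of the 11 neutrophil markers fell in lung over bone marrow and none rose (22.6% of all genes lower, 15.6% higher). In blood over bone marrow 6 of the 11 fell and 1 rose (13.1% of all genes lower, 8.34% higher). In lung over blood 1 of the 11 neutrophil markers fell and 1 rose (15.7% of all genes lower, 13.2% higher). Their summed level was 23636 to 44219 CPM (the usual count unit relative to library total, here with TMM scaling) in lung, 31769.5 to 46011 CPM in blood and 89938 to 130404 CPM in bone marrow. Transcripts of other cell types moved with the tissue and with single libraries, and some moved with the replicate number. The sum of 10 fibroblast and smooth muscle markers was 1594, 1356 and 176 CPM in lung replicates 1, 2 and 3, 56.0 to 98.7 CPM in blood and 131 to 287 CPM in bone marrow. The sum of 11 lung epithelial markers was 933, 305 and 113 CPM in lung replicates 1, 2 and 3, 28.6 to 44.4 CPM in blood and 66.0 to 129.5 CPM in bone marrow. The sum of 12 macrophage markers was 713 to 1585 CPM in lung, 457 to 559 CPM in blood and 920 to 1229.5 CPM in bone marrow. Most of the bone marrow sum was Chil3, with 934, 800 and 1082 CPM in bone marrow replicates 1, 2 and 3. Chil3 had 787, 926 and 71.3 CPM in lung replicates 1, 2 and 3. At the threshold given below, 10 of the 12 markers rose in lung over bone marrow and none fell. Of all genes, 15.6% rose and 22.6% fell there. The sum of 10 dendritic cell markers was 2699.7, 2038 and 677 CPM in lung replicates 1, 2 and 3, 187 to 1225 CPM in blood and 101 to 192 CPM in bone marrow. Lung replicate 3 was the lowest lung library in each of these sums. It was also the lowest lung library for endothelial (29.4 to 114 CPM in lung, 24.0 to 42.7 CPM in blood, 20.9 to 21.8 CPM in bone marrow), B cell (42.7 to 449.8, 61.5 to 388 and 27.4 to 105 CPM), T and NK cell (21.5 to 144, 20.1 to 115 and 38.2 to 113 CPM) and erythroid markers (32.8 to 428, 822 to 8812 and 1719 to 9371 CPM). In blood and in bone marrow, replicate 3 was likewise lowest for erythroid, for B cell and for T and NK cell markers. Erythroid markers had 8812, 6115 and 822 CPM in blood replicates 1, 2 and 3, and 8554, 9371 and 1719 CPM in those of bone marrow. By contrast, bone marrow replicate 3 was the highest bone marrow library for fibroblast, epithelial and macrophage markers. Monocyte markers summed to 2605 to 3660.4 CPM in lung, 1884 to 2456 CPM in blood and 1809.6 to 2379 CPM in bone marrow, with lung replicate 3 the highest. Most of the lung sum was Nr4a1, with 2005, 2607 and 3001 CPM in lung replicates 1, 2 and 3. Ly6c2, Csf1r, Treml4 and Eno3 were also highest in lung replicate 3 among the lung libraries. Ccr2, Cx3cr1, Ace and Fn1 were lowest there, and F13a1 lay between.

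Most of the 8 genes were higher in lung neutrophils. In lung over blood, 5 of the 8 genes rose, namely Il1a, Il1rn, Il1r1, Il1r2 and Il18, and none fell (edgeR's quasi-likelihood test, Benjamini-Hochberg adjusted over all genes, threshold 0.05). Of all genes tested, 28.9% passed in that comparison, 13.2% as higher and 15.7% as lower. In lung over bone marrow, 7 of the 8 rose and none fell, the exception being Il18rap, against a background of 38.2% of genes passing, 15.6% as higher and 22.6% as lower. In blood over bone marrow, Il1b and Il1rap rose and Il1r1 fell, against 21.4% of all genes passing, 8.34% as higher and 13.1% as lower. The median log2 fold change of the 8 genes was 2.40 in lung over blood, 2.29 in lung over bone marrow and -0.32 in blood over bone marrow, beside 0.05, 0.06 and -0.05 over all genes tested. Separate ranges of replicates were found for 5 of 8 genes in lung over blood (41.6% of all genes), 7 of 8 in lung over bone marrow (49.0%) and 4 of 8 in blood over bone marrow (45.4%). The comparisons share libraries and are not independent of each other.

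**Figure D1:**
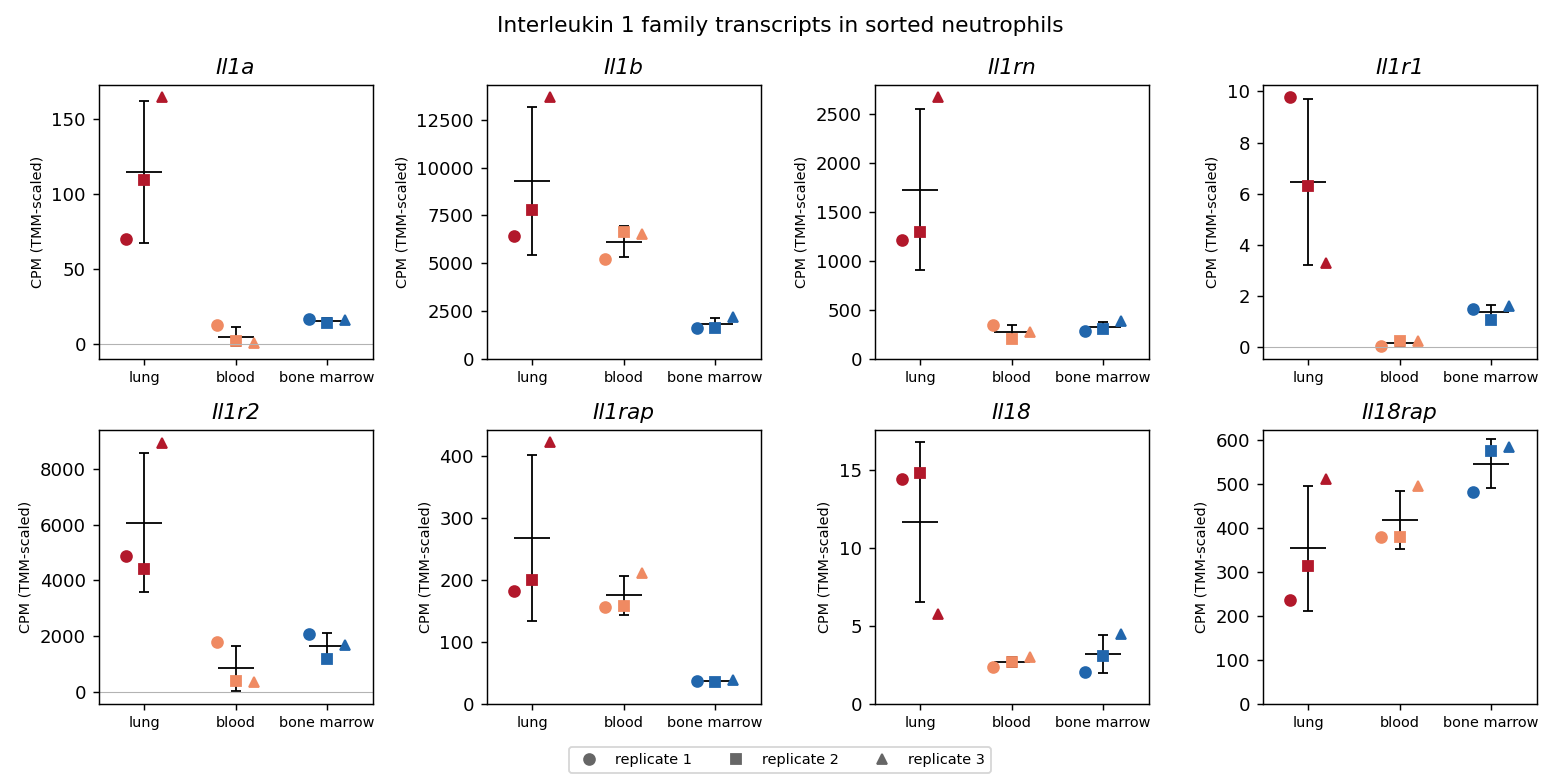
Level of each of the 8 genes in CPM (y axis, linear, a separate scale for each gene) in lung, blood and bone marrow neutrophils. Symbols are replicates, the horizontal line is the mean and the bars are ± 1 SD (n = 3). Il1b and Il1rap stand high in both lung and blood, Il1a, Il1rn, Il1r1, Il1r2 and Il18 stand high in lung, and Il18rap overlaps between tissues.

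**Figure D2:**
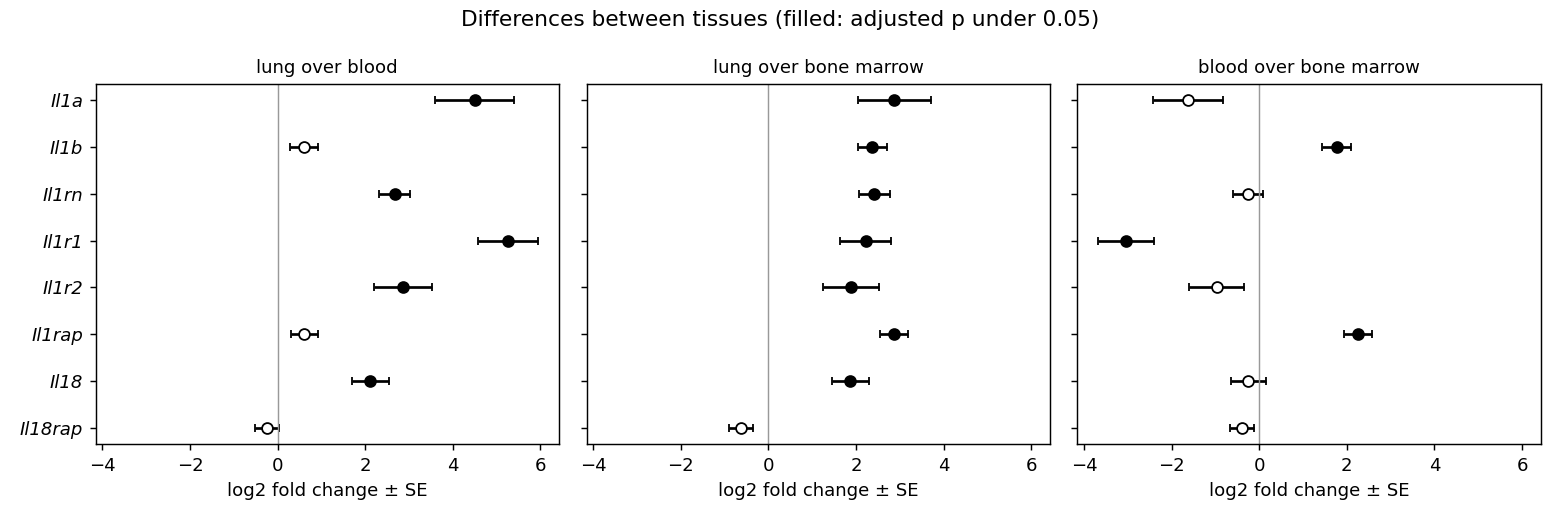
Log2 fold change (x axis) with its SE for each gene in lung over blood, lung over bone marrow and blood over bone marrow. Filled points passed an adjusted p of 0.05, which 5, 7 and 3 of the 8 genes did.

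Il1b, the secreted agonist, had 6407, 7772 and 13717 CPM in lung replicates 1, 2 and 3, 5199, 6647 and 6515 CPM in blood replicates 1, 2 and 3, and 1623, 1601 and 2167 CPM in bone marrow replicates 1, 2 and 3. Lung replicate 3 was the highest library, lung replicate 1 lay below blood replicates 2 and 3, and every lung and blood library lay above every bone marrow library. Il1b rose in lung over bone marrow by a log2 fold change of 2.37 ± 0.34 (SE; adjusted p = 0.000724 in edgeR's quasi-likelihood test) and in blood over bone marrow by 1.77 ± 0.33 (adjusted p = 0.00585 in edgeR). The difference of lung over blood was 0.60 ± 0.32 and did not pass (adjusted p = 0.196 in edgeR). In bulk RNA of a sorted population, more cells carrying a transcript and more of it per cell cannot be told apart, here and for every level given.

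Il1a, the agonist that is active without cleavage and is also known as an alarmin, had a different order of tissues. It had 70.4, 109 and 164 CPM in lung, 12.4, 1.98 and 0.815 CPM in blood, and 16.9, 13.9 and 16.0 CPM in bone marrow (replicates 1, 2 and 3 of each). All lung libraries lay above all others, and blood spread over 15.2-fold between its replicates, with replicate 1 close to the bone marrow libraries. The log2 fold change was 4.50 ± 0.90 in lung over blood (adjusted p = 0.00697 in edgeR) and 2.88 ± 0.83 in lung over bone marrow (adjusted p = 0.0250 in edgeR). In blood over bone marrow it was -1.63 ± 0.81 and did not pass (adjusted p = 0.191 in edgeR), but passed with limma-voom (-2.52, adjusted p = 0.0422). Without blood replicate 1 that difference was -3.38 (adjusted p = 0.00636 in edgeR) and lung over blood was 6.37, while the lung over bone marrow call was lost without lung replicate 2, without lung replicate 3 or without any 1 bone marrow library (adjusted p = 0.0543 to 0.0925 in edgeR).

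Il1rn, the antagonist, had 1213, 1292 and 2670.1 CPM in lung, 339, 201 and 271 CPM in blood, and 279.6, 300.4 and 385 CPM in bone marrow. Every lung library lay above every other library, and blood and bone marrow overlapped. It rose by a log2 fold change of 2.67 ± 0.36 in lung over blood (adjusted p = 0.00124 in edgeR) and 2.42 ± 0.36 in lung over bone marrow (adjusted p = 0.00088 in edgeR). The difference of blood over bone marrow was -0.25 ± 0.34 (adjusted p = 0.658 in edgeR), and its sign turned in the FPKM fits and without blood replicate 2. Per transcript length, as FPKM (fragments relative to transcript length and library depth) of the deposited table, lung replicates had 563, 576 and 823, blood replicates 144, 99.3 and 112, and bone marrow replicates 104, 107 and 119.

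Because the agonist and its antagonist compete for 1 receptor, their FPKM were also set side by side within each library, as a description without a test. The ratio of Il1b to Il1rn was 9.70, 11.0 and 9.43 in lung, 28.0, 59.9 and 43.7 in blood, and 10.5, 9.67 and 10.2 in bone marrow. The bone marrow ratios lay within the range of lung, and all 3 blood libraries lay above both. These ratios count all Il1rn transcripts together. The transcript of the secreted form, described below, held 91.7% to 92.2% of reads in lung and 50.4% to 54.7% in bone marrow. In blood it held 55.1% to 68.2%. Ratios to that form alone were not computed, so the likeness of lung and bone marrow covers the summed transcripts only. The ratio of Il1b to Il1a was 133, 104 and 122 in lung, 614, 4918 and 11993 in blood, and 141, 169 and 198 in bone marrow. The blood ratio of the agonists rested on 569, 114 and 36 Il1a reads in replicates 1, 2 and 3, so that blood replicate 3 had the fewest. From the TPM, a length-normalized unit, in the separate files of the lung and blood libraries, the ratio of Il1b to Il1rn was 7.49 ± 0.80 in lung and 28.3 ± 9.83 in blood (SD, n = 3 each), which kept the order of both tissues.

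**Figure D3:**
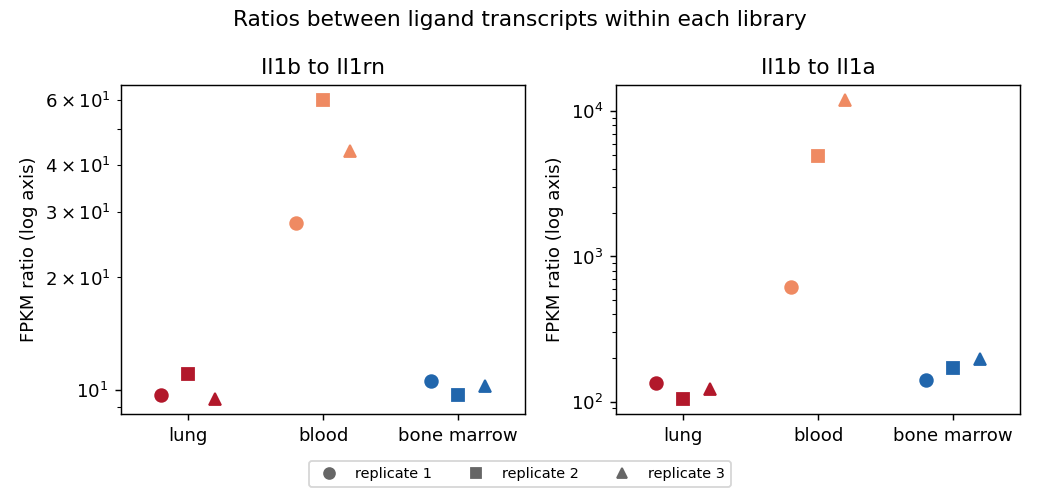
FPKM ratios of Il1b to Il1rn and of Il1b to Il1a (y axes, log scale) in each library of lung, blood and bone marrow neutrophils, with symbols for replicates. The 3 blood libraries, at 28.0 to 59.9 and at 614 to 11993, lie above all lung and bone marrow libraries in both panels.

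The antagonist gene has several start sites, and the deposited table assigns its reads to 3 transcripts. The transcript that starts at base 24345371 of chromosome 2 codes for 178 residues, the secreted precursor. It held 91.8%, 91.7% and 92.2% of Il1rn reads in lung, 68.2%, 55.1% and 56.3% in blood, and 54.7%, 50.4% and 54.0% in bone marrow. Its share in the 3 lung libraries differed by less than 1 point and lay above every other library. The mean share was 91.9% ± 0.27 in lung, 59.9% ± 7.24 in blood and 53.0% ± 2.32 in bone marrow (SD, n = 3). An exact two-sided permutation test gave p = 0.1 for each of 6 share comparisons of Il1rn and Il1rap, which is the smallest p that 3 against 3 libraries allow, and 0.1 after Benjamini-Hochberg adjustment.

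Tested alone among 19322 transcripts, of which 13.8% passed in lung over blood and 19.7% in lung over bone marrow, the 178-residue transcript rose by 3.35 ± 0.44 over blood (adjusted p = 0.00359 in edgeR) and by 3.40 ± 0.44 over bone marrow (adjusted p = 0.00165 in edgeR). The transcript that starts upstream at base 24345291, with 162 coding codons, had 88.0, 92.1 and 182 CPM in lung, 104, 88.3 and 116 CPM in blood, and 124, 146 and 175 CPM in bone marrow. Its tissues overlapped, and neither lung difference passed (log2 fold change 0.31 ± 0.32 over blood and -0.12 ± 0.32 over bone marrow, adjusted p = 0.612 and 0.828 in edgeR). The transcript of 159 residues, an intracellular form that starts at base 24336860, had 11.4, 15.0 and 26.1 CPM in lung, 3.34, 2.1 and 2.49 CPM in blood, and 2.43, 3.47 and 2.05 CPM in bone marrow. This form took 0.53% to 1.16% of the gene's reads, and it rose by 2.80 ± 0.42 over blood (adjusted p = 0.00587 in edgeR) and by 2.89 ± 0.42 over bone marrow (adjusted p = 0.00268 in edgeR). These transcripts share most of their exons, so their separation rests on the authors' assignment of reads, whose effect on the shares was not tested.

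**Figure D4:**
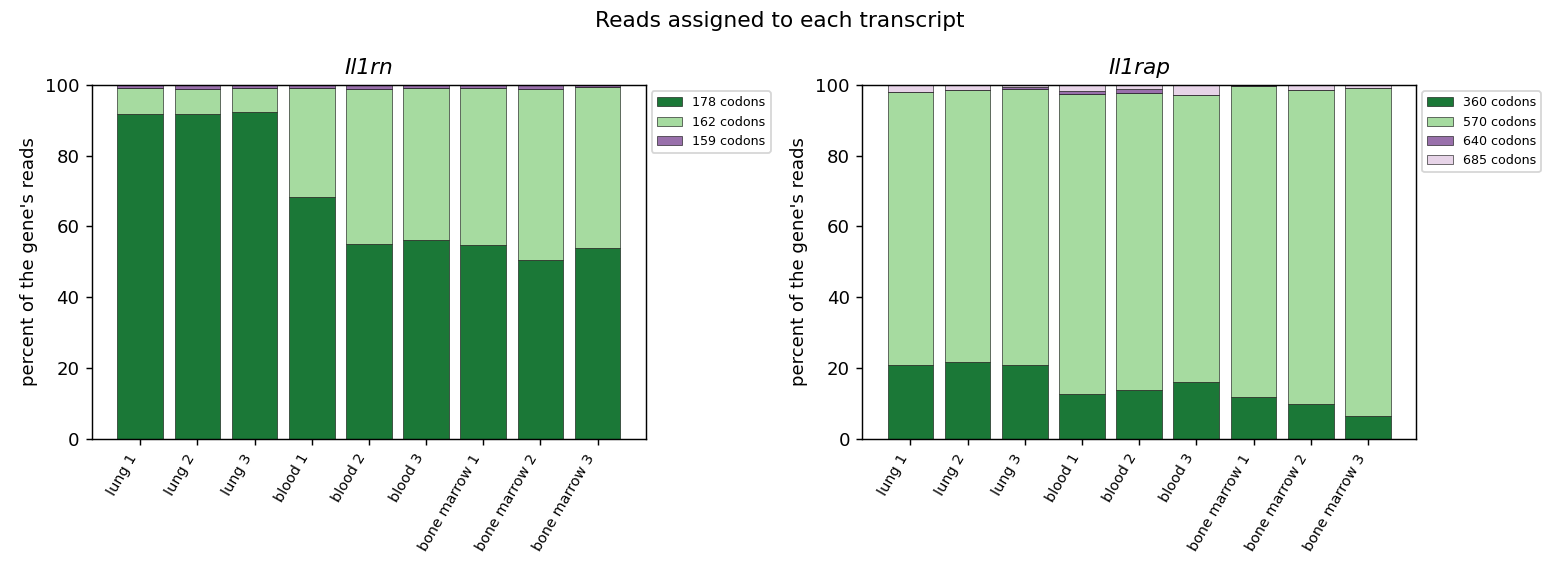
Percent of a gene's reads assigned to each transcript (y axis, stacked from 0 to 100) in each of the 9 libraries, for Il1rn and Il1rap. Colours give the coding length in codons. The 178-codon Il1rn transcript takes 91.7% to 92.2% in lung and 50.4% to 68.2% elsewhere, and the 360-codon Il1rap transcript takes 20.7% to 21.6% in lung and 6.57% to 16.1% elsewhere.

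Il1r2, the decoy receptor, at chr1:40084768-40125226 on the plus strand, had 4860.3, 4408 and 8951 CPM in lung, 1783, 375 and 352 CPM in blood, and 2089, 1157 and 1689 CPM in bone marrow. Every lung library lay above the others, and blood replicate 1 lay within the range of bone marrow while blood replicates 2 and 3 lay below it. The log2 fold change was 2.86 ± 0.67 in lung over blood (adjusted p = 0.0125 in edgeR) and 1.88 ± 0.64 in lung over bone marrow (adjusted p = 0.0449 in edgeR). For blood over bone marrow it was -0.98 ± 0.63 and did not pass (adjusted p = 0.313 in edgeR), against -2.08 without blood replicate 1 (adjusted p = 0.0339 in edgeR), when lung over blood was 4.08. The lung over bone marrow call was lost with limma-voom (adjusted p = 0.0693) and without any 1 of the 6 libraries compared (adjusted p = 0.0645 to 0.152 in edgeR), and the lung over blood call was lost without blood replicate 3 (adjusted p = 0.0565 in edgeR).

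Il1r1, the signalling receptor, at chr1:40225080-40316177 on the plus strand, was the lowest of the 8 genes in every tissue. It had 9.77, 6.32 and 3.30 CPM in lung, 0.0436, 0.226 and 0.227 CPM in blood, and 1.48, 1.08 and 1.61 CPM in bone marrow. These levels rest on 538, 317 and 133 reads in lung, 2, 13 and 10 reads in blood and 62, 55 and 63 reads in bone marrow, and the tissues did not overlap. The log2 fold change was 5.26 ± 0.68 in lung over blood (adjusted p = 0.00101 in edgeR), 2.22 ± 0.58 in lung over bone marrow (adjusted p = 0.0161 in edgeR) and -3.04 ± 0.63 in blood over bone marrow (adjusted p = 0.00977 in edgeR). The lung over bone marrow call was lost without lung replicate 1, bone marrow replicate 1 or bone marrow replicate 2 (adjusted p = 0.0519 to 0.0726 in edgeR). The blood over bone marrow call was lost with limma-voom (adjusted p = 0.115) and in limma on log2(FPKM + 0.1) (adjusted p = 0.0965) and log2(FPKM + 1) (adjusted p = 0.515), where the level in blood is close to 0 and lung over blood was 3.30 and 1.16. Il1r1 reads were assigned to 2 transcripts. Tested alone, that of 573 codons passed in lung over blood (5.35 ± 1.27, adjusted p = 0.0295 in edgeR). It did not pass in lung over bone marrow or in blood over bone marrow (adjusted p = 0.115 and 0.207 in edgeR). The transcript of 576 codons held 82.5% of Il1r1 reads in bone marrow replicate 3 and 0% in bone marrow replicates 1 and 2.

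Il1rap, the accessory chain that completes the IL-1 receptor, at chr16:26581705-26725147 on the plus strand, followed the order of tissues of Il1b. It had 182, 200.01 and 423 CPM in lung, 157, 158 and 212 CPM in blood, and 36.0, 35.1 and 38.9 CPM in bone marrow. Lung and blood overlapped, since lung replicates 1 and 2 lay below blood replicate 3, and all 6 libraries lay above bone marrow. The log2 fold change was 2.87 ± 0.33 in lung over bone marrow (7.31-fold, adjusted p = 0.000236 in edgeR) and 2.26 ± 0.32 in blood over bone marrow (4.79-fold, adjusted p = 0.00152 in edgeR). In lung over blood it was 0.61 ± 0.31 (adjusted p = 0.173 in edgeR).

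The Il1rap transcript of 360 codons, which is known to encode a soluble form of the accessory chain, held 20.7%, 21.6% and 20.8% of Il1rap reads in lung, 12.7%, 13.7% and 16.1% in blood, and 11.9%, 9.95% and 6.57% in bone marrow. The 3 tissues did not overlap in this share, which averaged 21.1% ± 0.51, 14.2% ± 1.76 and 9.48% ± 2.71 in lung, blood and bone marrow (SD, n = 3 each), with the exact permutation p of 0.1 given above. Tested alone, this transcript rose by 4.19 ± 0.47 in lung over bone marrow (adjusted p = 0.00089 in edgeR) and by 2.96 ± 0.44 in blood over bone marrow (adjusted p = 0.00607 in edgeR). In lung over blood it differed by 1.23 ± 0.41 and did not pass (adjusted p = 0.0888 in edgeR). The membrane-bound form of 570 codons held 77.1% to 78.2% of reads in lung, 81.0% to 84.7% in blood and 87.8% to 92.5% in bone marrow. It rose by 2.84 ± 0.37 in lung over bone marrow (adjusted p = 0.00178 in edgeR) and by 2.25 ± 0.36 in blood over bone marrow (adjusted p = 0.00842 in edgeR), a comparison in which 9.4% of all transcripts passed.

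Il18, at chr9:50565368-50581837 on the plus strand, had 14.5, 14.9 and 5.74 CPM in lung, 2.35, 2.71 and 2.99 CPM in blood, and 2.03, 3.08 and 4.47 CPM in bone marrow. In CPM all lung libraries lay above the others, replicate 3 least so, and blood and bone marrow overlapped. In TPM of the separate files, lung replicate 3 overlapped with blood, with 34.0, 32.9 and 8.14 TPM in lung and 5.37, 8.16 and 6.23 TPM in blood. The log2 fold change was 2.12 ± 0.42 in lung over blood (adjusted p = 0.00625 in edgeR) and 1.87 ± 0.42 in lung over bone marrow (adjusted p = 0.00758 in edgeR). In blood over bone marrow it was -0.25 ± 0.41 (adjusted p = 0.717 in edgeR), with a sign that turned in the FPKM fits and without bone marrow replicate 3.

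Il18rap, the accessory chain of the IL-18 receptor, at chr1:40515362-40551705 on the plus strand, did not pass in any comparison in edgeR's fit by tissue alone. It had 237, 312 and 511 CPM in lung, 379, 379 and 494 CPM in blood, and 481, 574 and 583 CPM in bone marrow. Lung overlapped with both other tissues through replicate 3, its highest library, and blood overlapped with bone marrow through blood replicate 3. The log2 fold change was -0.24 ± 0.28 in lung over blood (adjusted p = 0.566 in edgeR), -0.63 ± 0.28 in lung over bone marrow (adjusted p = 0.105 in edgeR) and -0.39 ± 0.28 in blood over bone marrow (adjusted p = 0.369 in edgeR). Without lung replicate 3 it was -0.64 in lung over blood (adjusted p = 0.0388 in edgeR) and -1.03 in lung over bone marrow (adjusted p = 0.00508 in edgeR), and it also passed in lung over bone marrow on the FPKM scale (-0.47 with a pseudocount of 0.1, adjusted p = 0.0383 in limma).

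Compared per transcript length, the 8 genes spanned a wide range within each tissue. In lung the order by mean FPKM was Il1b (6530.2 ± 1159), Il1r2 (4286 ± 738), Il1rn (654 ± 146), Il18rap (68.6 ± 12.2), Il1rap (65.7 ± 16.3), Il1a (55.2 ± 12.4), Il18 (14.4 ± 8.10) and Il1r1 (1.44 ± 0.905), each with its SD over 3 libraries. Il18rap, Il1rap and Il1a overlapped in lung, and the other neighbours in this order did not. Il1b ranked 4 and Il1r2 ranked 9 among the 13510 tested genes by mean FPKM in lung. In blood Il1b had 4956 ± 961 FPKM (rank 7), Il1r2 663 ± 629, Il1rn 118 ± 23.2, Il18rap 92.2 ± 10.5, Il1rap 47.1 ± 6.95, Il18 3.35 ± 0.473, Il1a 2.73 ± 3.35 and Il1r1 0.0365 ± 0.0248. There Il1rn overlapped with Il18rap, and Il18 with Il1a. In bone marrow Il1b had 1116 ± 89.7 FPKM (rank 49), Il1r2 1039 ± 339 (rank 54), Il1rn 110.1 ± 7.91, Il18rap 94.0 ± 7.48, Il1rap 7.37 ± 0.564, Il1a 6.69 ± 0.952, Il18 3.03 ± 0.883 and Il1r1 0.242 ± 0.0423. There Il1b overlapped with Il1r2, and Il1rap with Il1a.

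The libraries of a tissue did not deviate alike for all 8 genes. Lung replicate 3 was the highest lung library for 6 of the 8 genes (Il1a, Il1b, Il1rn, Il1r2, Il1rap and Il18rap) and the lowest for the other 2 (Il1r1 and Il18). It had the lowest scaling factor of the lung libraries, 0.791, against 1.19 and 1.14 in lung replicates 1 and 2. It was also the highest of the lung libraries in unscaled FPKM of Il1b, with 7763, against 5462 and 6366 in lung replicates 1 and 2. Il1r1 and Il18, the pair lowest in lung replicate 3, thus ran with the summed fibroblast, epithelial, macrophage, erythroid, endothelial, dendritic cell, T and NK cell and B cell markers, which were lowest there too, and the other 6 did not. Of the marker lists, 9 of 10 fibroblast and smooth muscle markers, 7 of 11 epithelial markers and 8 of 12 macrophage markers rose in lung over blood. Of the 9 endothelial markers tested, 6 rose there. Of all genes, 13.2% rose in that comparison. In lung over bone marrow 6 fibroblast and smooth muscle, 3 epithelial, 10 macrophage and 8 endothelial markers rose, beside 15.6% of all genes. There 1 fibroblast and smooth muscle marker fell, beside 22.6% of all genes. In lung no marker of these lists had 9 reads or fewer summed over the 3 libraries. In blood 1 fibroblast, 3 epithelial and 6 endothelial markers did. The part of such transcripts in the levels of Il1r1 and Il18 was not tested, and in CPM both lay above every blood and bone marrow library in lung replicate 3. In TPM of the separate files that did not hold for Il18, which had 8.14 TPM in lung replicate 3 and 8.16 TPM in blood replicate 2.

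**Figure D5:**
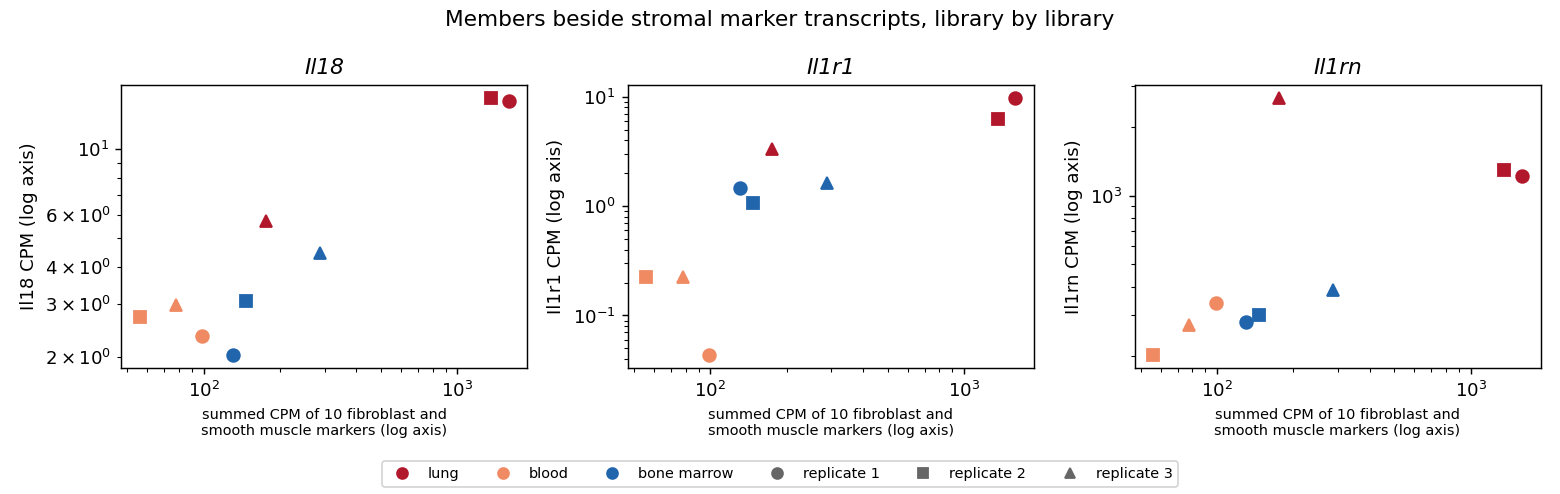
CPM of Il18, Il1r1 and Il1rn (y axes, log scale) against the summed CPM of 10 fibroblast and smooth muscle markers (x axes, log scale) in each library of lung, blood and bone marrow neutrophils. Lung replicate 3, at 176 CPM of these markers, is the lowest lung library for Il18 (5.74 CPM) and Il1r1 (3.30 CPM) and the highest for Il1rn (2670.1 CPM).

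Il1r2, Il1r1 and Il18rap belong to a cluster of receptor genes that spans 466.9 kb from the start of Il1r2 to the end of Il18rap on chromosome 1, with Il1rl2, Il1rl1 and Il18r1 between Il1r1 and Il18rap. The genes of the cluster differed in their order of tissues. Il1rl1, the IL-33 receptor chain, had 8.64, 8.09 and 5.86 CPM in lung, 3.25, 4.36 and 5.64 CPM in blood, and 3.19, 3.02 and 3.94 CPM in bone marrow, and rose in lung over bone marrow (log2 fold change 1.15 ± 0.28, adjusted p = 0.0121 in edgeR). Il18r1, the ligand-binding chain that pairs with Il18rap, had 15.2, 19.1 and 19.0 CPM in lung, 17.4, 22.1 and 21.5 CPM in blood, and 31.1, 39.6 and 30.1 CPM in bone marrow. It fell in lung over bone marrow by 0.92 ± 0.17 on the log2 scale (adjusted p = 0.0026 in edgeR) and in blood over bone marrow by 0.73 ± 0.16 (adjusted p = 0.0142 in edgeR). Il1rl2, the IL-36 receptor chain, had 2.80, 3.01 and 0.348 CPM in lung and 0.249 to 0.572 CPM in blood and bone marrow, with lung replicate 3 within the range of bone marrow, and rose in lung over blood (2.87 ± 0.79, adjusted p = 0.0245 in edgeR) and in lung over bone marrow (2.25 ± 0.77, adjusted p = 0.0455 in edgeR).

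Among 13 other ligands and receptors of the family, 7 passed the filter on low counts, and the other 6 had at most 10 reads in any library. Of the 7, Il33 and Il1rl2 rose and Il1f9 fell in lung over blood. In lung over bone marrow Il1rl1 and Il1rl2 rose and Il18bp, Il18r1 and Il1f9 fell, and in blood over bone marrow Il18bp and Il18r1 fell. These were 42.9%, 71.4% and 28.6% of those tested, beside 28.9%, 38.2% and 21.4% of all genes. The share in blood over bone marrow lay near that of all genes, so that count is no result about the list. The median log2 fold changes of the 7 were 0.65, 1.06 and -0.62, beside 0.05, 0.06 and -0.05 over all genes. The gene listed as Il1f9, which encodes IL-36 gamma, lies near Il1rn on chromosome 2 and had 241, 259 and 357 CPM in lung, 581, 378 and 535 CPM in blood, and 654, 595 and 686 CPM in bone marrow. Every lung library lay below every other library, and Il1f9 fell in lung over blood by 0.80 ± 0.22 on the log2 scale (adjusted p = 0.0265 in edgeR) and in lung over bone marrow by 1.18 ± 0.23 (adjusted p = 0.00374 in edgeR). Il18bp, the secreted protein that neutralizes IL-18, had 8.41, 10.3 and 11.5 CPM in lung, 10.2, 10.2 and 11.0 CPM in blood, and 43.1, 49.3 and 62.2 CPM in bone marrow. It fell by 2.35 ± 0.18 in lung over bone marrow (adjusted p = 3.3e-05 in edgeR) and by 2.30 ± 0.18 in blood over bone marrow (adjusted p = 6.9e-05 in edgeR). Il33, the ligand of the Il1rl1 receptor, had 8.28, 3.43 and 0.248 CPM in the 3 lung libraries, in the order of their fibroblast markers, and at most 0.460 CPM elsewhere.

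In a list of 22 genes for the maturation and release of IL-1 family cytokines, 2 rose and 4 fell in lung over blood, with a median log2 fold change of -0.18 beside 0.05 over all genes. These are 27.3% of the list, close to the 28.9% of all genes that passed, so that count is no result about the list. In lung over bone marrow 6 rose and 11 fell (77.3% of the list and 38.2% of all genes, median -0.52 beside 0.06), and in blood over bone marrow 4 rose and 7 fell (50.0% of the list and 21.4% of all genes, median -0.18 beside -0.05). The gene listed as Dfna5, which encodes the pore-forming protein gasdermin E, fell in lung over blood by 2.12 ± 0.30 on the log2 scale (30.3 ± 12.8 CPM in lung and 132 ± 18.0 CPM in blood, SD). Ninj1, which mediates rupture of the plasma membrane in dying cells, rose by 1.62 ± 0.33 (746 ± 253 CPM in lung and 242 ± 66.3 CPM in blood). The inflammasome sensors Nlrp1a and Naip2 fell in lung over blood by 1.45 ± 0.30 and 1.23 ± 0.21, and Nlrc4 rose in lung over bone marrow by 3.30 ± 0.56 (7.09 ± 1.47 CPM in lung and 0.718 ± 0.263 CPM in bone marrow). Transcripts of Elane and Ctsg, which encode granule proteases that can cut IL-1 family precursors outside inflammasomes, were near 0 in lung and blood. These are levels of RNA, and protein was not measured. Elane had 0.00605 ± 0.0105 CPM in lung, 0.0563 ± 0.0300 CPM in blood and 21.6 ± 21.1 CPM in bone marrow. Ctsg, the gene of the other of these proteases, had 0.0913 ± 0.101, 0.0290 ± 0.0502 and 6.31 ± 5.55 CPM in lung, blood and bone marrow. Their inhibitor Serpinb1a fell by 3.53 ± 0.40 in lung over bone marrow and by 3.76 ± 0.41 in blood over bone marrow, and the protease Prtn3 fell by 2.99 ± 0.76 in blood over bone marrow. Nlrp3 and Casp1, the sensor and the protease of the inflammasome that matures IL-1 beta, were named after their values were seen. Nlrp3 rose by 1.01 ± 0.34 in lung over bone marrow (2206 ± 894 CPM in lung and 1098 ± 218 CPM in bone marrow), and Casp1 fell by 0.92 ± 0.16 (22.9 ± 3.72 CPM in lung and 43.5 ± 5.58 CPM in bone marrow).

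In a list of 20 genes for signalling close to the receptor, 3 rose and 7 fell in lung over blood, 3 rose and 6 fell in lung over bone marrow, and 3 rose and 2 fell in blood over bone marrow. These were 50.0%, 45.0% and 25.0% of the list, beside 28.9%, 38.2% and 21.4% of all genes. The medians were -0.38, -0.14 and 0.02, beside 0.05, 0.06 and -0.05 over all genes. Irak2, a kinase-related adaptor that sustains the signal, had 771 ± 290 CPM in lung, 109.6 ± 16.1 CPM in blood and 129 ± 17.9 CPM in bone marrow (SD, n = 3 each), and rose by 2.81 ± 0.29 over blood and 2.58 ± 0.28 over bone marrow. Mapkapk2, a kinase downstream of p38, rose by 2.53 ± 0.34 over blood and 2.28 ± 0.33 over bone marrow. The upstream kinase Irak4 fell in lung over blood, with 34.4 ± 7.90 CPM in lung and 97.1 ± 28.0 CPM in blood, and the inhibitory Irak3 rose by 1.23 ± 0.27. Peli2, a ubiquitin ligase, fell by 1.82 ± 0.16 in lung over bone marrow and by 1.62 ± 0.16 in blood over bone marrow, and the p38 kinase gene Mapk14 fell by 1.26 ± 0.30 in lung over bone marrow. Peli1, Map3k8 and Irak1 rose in blood over bone marrow, by 1.17 ± 0.18, 1.05 ± 0.16 and 0.56 ± 0.14.

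Of 24 genes known to respond to IL-1, 22 were tested. In lung over blood 13 rose and none fell, in lung over bone marrow 15 rose and 1 fell, and in blood over bone marrow 4 rose and 3 fell. These were 59.1%, 72.7% and 31.8% of those tested, beside 28.9%, 38.2% and 21.4% of all genes. The medians were 1.82, 2.05 and -0.45, beside 0.05, 0.06 and -0.05 over all genes. The neutrophil growth factor gene Csf3 had 23.5 ± 9.36 CPM in lung, 0 CPM in every blood library and 0.0965 ± 0.125 CPM in bone marrow. The chemokine gene Cxcl1 had 99.3 ± 32.5 CPM in lung and 1.05 ± 0.815 CPM in blood, and rose by 6.56 ± 0.72. The acute-phase gene Saa3 rose by 5.67 ± 0.98 in lung over blood and 4.61 ± 0.93 in lung over bone marrow, and the adhesion gene Vcam1 rose by 4.21 ± 0.41 in lung over blood. Icam1, another adhesion gene, rose by 5.48 ± 0.36 in lung over bone marrow and by 1.79 ± 0.31 in blood over bone marrow. The exception was Lcn2, a granule protein gene, with a log2 fold change of -3.31 ± 0.30 in lung over bone marrow and -3.38 ± 0.31 in blood over bone marrow. Cxcl1 changed by -3.61 ± 0.64 in blood over bone marrow, and Ptgs2, which makes prostaglandin precursors, by 1.97 ± 0.37. Many of these genes are also expressed by the fibroblast, epithelial and macrophage cells whose markers rose in lung. Endothelial markers rose there too. The part of any of these cells was not tested.

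Across the 9 libraries, the genes most like each of the 8 by Pearson correlation of log2 CPM, among 7762 genes with a mean of at least 5 CPM, are given as a description without a test. They share libraries, scaling and tissue differences, and with 9 points many genes reach high values. Il1b was nearest to Prkab2 (0.993), Mefv (0.991) and Il1rap (0.990), and Il1rap to St13 (0.997), Mefv (0.994) and Ifitm1 (0.991). Il1a was nearest to Ifrd1 (0.994), Cwc25 (0.990) and Txnl1 (0.988), and Il1r2 to Cwc25, Fth1 and Eif4a1 (0.989 each). Il1rn was nearest to Ist1 (0.999), Nfe2l2 (0.994) and Ptpn2 (0.993), and Il18rap to Rspry1 (0.985), Mark3 (0.982) and Etv6 (0.981). Il1r1 was nearest to Sftpb (0.968), a surfactant gene of the lung epithelium, and then to Ssr4 and Cish (0.947 each). Il18 was nearest to Pmp22 (0.981), Pald1 (0.980) and Pcolce (0.978), the last of which encodes a collagen-processing protein of fibroblasts. Pcolce had 37.5, 23.0 and 2.04 CPM in lung, 0.283, 0.348 and 0.498 CPM in blood, and 0.334, 1.10 and 2.99 CPM in bone marrow.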

How the data were processed

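Neutrophil libraries of 3 tissues (3 replicates each, numbered as in the titles) were analysed. Per the file headers, the deposited series table lists 36780 RefSeq transcripts with read counts and FPKM. The counts are whole numbers, and the deposited FPKM equals count over length and 1 constant per library. The bone marrow libraries' own files repeat these counts. The lung and blood libraries' own files hold, per the file headers, RSEM expected counts and TPM for 55450 genes, and were used as an alternative after rounding the deposited expected counts. The submitters' processing notes name the build mm10 and the tools DESeq2, RSEM, STAR, Bowtie2 and StringTie 2.1.3b, without saying which step used which. The labels' protocols name the TruSeq mRNA kit both with and without strand selection, and whether counting used strand is not given. Reads from the stretches that Il1b and Il1a share with their overlapping antisense genes Il1bos and Gm14023 may therefore not be told apart. The same holds for the stretch that Il1r2 shares with the overlapping Gm16894.

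Here counts were summed by gene and filtered with filterByExpr. EdgeR 4.0.16 (R 4.3.3) fitted all 9 libraries with TMM scaling, group means and robust quasi-likelihood. Tests were two-sided with Benjamini-Hochberg adjustment over 13510 genes (threshold 0.05; common biological coefficient of variation 0.448), and the procedure was tested on simulated data. Transcripts were fitted likewise, as an alternative chosen after seeing the data. SE is the absolute log2 fold change over the root of F. Coding lengths come from GENCODE M21, and positions from the outermost transcript ends in mm10. DESeq2 1.42.0 and limma 3.58.1 served as alternatives, besides other scalings, filters, FPKM, a replicate block, 6-library fits and leaving out each library. Tables and plots were made with pandas 2.3.3, numpy 2.4.6 and matplotlib 3.10.9 under Python 3.11.15. From each list up to 4 genes are named, those of largest absolute change among genes that passed with at least 5 CPM in the higher tissue. The 3 genes most like each member exclude predicted genes. The members and the lists were chosen with earlier results of these data known. Depth is given as total counts. 1 list symbol, Ahsp, was not matched and is not used here. 1 neutrophil marker is not reported here and was left out of its list.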

Additional observations from a re-analysis of the deposited data

How the results depend on the processing

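The directions and calls of Il1a, Il1rn, Il1r1 and Il18 in lung over blood, of Il1b, Il1rn, Il1rap and Il18 in lung over bone marrow, and of Il1b and Il1rap in blood over bone marrow were kept under every alternative run at gene level. The count of members called was 5 in lung over blood in every fit with all libraries, 6 to 8 in lung over bone marrow and 2 or 3 in blood over bone marrow. With 1 library left out it ranged from 4 to 6, 4 to 7 and 3 to 5, and the genes called ranged from 1922 to 5852, 3258 to 6984 and 1236 to 3965, beside 3900, 5158 and 2892. Leaving out lung replicate 3 gave the most genes called. Members called were 4 in lung over bone marrow without bone marrow replicate 1 or 2, and 5 in blood over bone marrow without blood replicate 1. Genes called in lung over blood were 2527, 2338 and 1922 without blood replicates 1, 2 and 3, and 5852 without lung replicate 3. In lung over bone marrow they were 3258 without bone marrow replicate 2. In blood over bone marrow they were 1555, 1236 and 1499 without blood replicates 1, 2 and 3, and 1595 and 1665 without bone marrow replicates 2 and 3.

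In blood over bone marrow, Il1rn turned to 0.090 in both FPKM fits and, with 1 library left out, ranged from -0.36 to 0.032 (without blood replicate 2). Il18 turned to 0.17 with log2(FPKM + 0.1) and 0.13 with log2(FPKM + 1), and with 1 library left out ranged from -0.51 to 0.069 (without bone marrow replicate 3). Single transcripts differed in sign from their gene in lung over bone marrow for Il1rn of 162 codons (-0.12), in blood over bone marrow for Il1rn of 159 (0.081) and 178 codons (0.048), and in lung over blood for Il1rap of 685 (-0.25) and 640 codons (-0.45). None of these differences passed a threshold, and the cause was not tested. TPM of the separate files gave Il1b to Il1rn as 7.49 and Il1b to Il1a as 141.8 in lung, beside 10.1 and 119.9 from FPKM.

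Same-numbered libraries deviated together in 8 of 9 pairs (correlation over 0.1, lowest 0.0489, highest 0.518), and 4 of 18 other pairs did (-0.504 to 0.453), so the numbers were not taken as pairs. That rests on 1 pair, blood and bone marrow replicates 1. Erythroid and lymphocyte (B, T and NK cell) marker sums were lowest in replicate 3 of every tissue. Their part in the shared deviations was not tested. On log scales with prior counts of 0.5 to 5, 8 of 9 pairs were over 0.1 each time, with a lowest correlation of 0.0032 to 0.091. With the replicate number as a block, 5, 8 and 3 members and 4751, 5973 and 3990 genes were called in lung over blood, lung over bone marrow and blood over bone marrow, and Il18rap passed in lung over bone marrow (-0.69, adjusted p = 0.0216 in edgeR).

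Scaling moved the median of all genes by over 0.1. It was 0.21, 0.38 and 0.11 with upper-quartile scaling, beside 0.05, 0.06 and -0.05. Of the genes called, 55.9%, 59.3% and 52.6% were higher with upper-quartile scaling, and 56.9%, 52.0% and 43.1% with DESeq2 size factors, beside 45.6%, 40.9% and 39.0%. Depth limits Il1r1 in blood, where replicate 1 had 2 reads. The RSEM expected counts of Il1r1 in blood replicates 1, 2 and 3 were lower still, at 1, 7 and 5.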

Other observations

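In the separate RSEM files of the lung and blood libraries, edgeR called the same 5 of 8 genes as the series table. The log2 fold changes of lung over blood there were 4.59 for Il1a, 2.72 for Il1rn, 5.23 for Il1r1, 3.20 for Il1r2 and 2.15 for Il18. The counts of the series table were 1.87 to 1.90 times the RSEM totals over whole libraries. For Il1r2 the series count was 2.07, 2.12 and 2.08 times the RSEM count in lung replicates 1, 2 and 3, and 2.57, 2.82 and 2.54 times in blood replicates 1, 2 and 3.

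Il1bos, a gene whose span overlaps the start of Il1b, had 21.0, 20.8 and 39.6 CPM in lung, 13.7, 11.7 and 9.58 CPM in blood, and 6.72, 5.68 and 7.44 CPM in bone marrow. It rose by 1.22 ± 0.27 in lung over blood and by 2.04 ± 0.28 in lung over bone marrow (adjusted p = 0.0108 and 0.000623 in edgeR). Its part in the reads counted for Il1b, and theirs in its own, was not tested.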
